A study of Mus musculus with 19 samples.

Results

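The genes described are the nuclear genes of the mitochondrial respiratory chain and ATP synthase, read in the striatum of 19 mice and grouped by the complex their proteins build. They were taken by name: protein-coding genes whose symbol begins with Ndufa, Ndufb, Ndufc, Ndufs, Ndufv, Uqcr, Cox4, Cox5, Cox6, Cox7, Cox8 or Atp5, and Sdha to Sdhd. This gave 94 of the 49592 genes counted, of which 93 passed the filter on low counts and were tested among 21513 genes. Complex I had 37 members, complex II 4, complex III 8, complex IV 20 and complex V 17. The name rule also took in 8 complex I assembly factors (Ndufaf1 to Ndufaf8), which help build the complex without staying in it and are given apart. Ndufa4 and Ndufa4l2 carry complex I names but are counted here with complex IV, in which the Ndufa4 protein sits.

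All 19 animals were male, 4 months old, and of 1 genotype: Cre recombinase driven by the D2 dopamine receptor gene (D2R-Cre) together with a Cre-dependent Cas9-EGFP, so that controls carried both transgenes too. Knockout mice received an AAV5 virus with D2R-sgRNA, guides that direct Cas9 to the D2 receptor gene, and mCherry in medial prefrontal cortex. Control mice received AAV5 with mCherry under the synapsin promoter in the same place. The tissue sequenced was striatum, whose D2 receptor cells carry the same transgenes but lie outside the injected region. Where the guides acted was not measured. After saline injections on 5 days, a challenge on day 9 was saline or amphetamine at 3 mg/kg, and tissue was taken 90 min after the challenge, a time the labels give for amphetamine. There were 5 mice each in the saline control, amphetamine control and saline knockout groups, and 4 had amphetamine after the knockout virus (amphetamine knockout). The level of the D2 receptor in prefrontal cortex was not measured in these samples, so the knockout itself is not checked here.

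The respiratory chain passes electrons from NADH (complex I) and succinate (complex II) through complex III to complex IV, which reduces oxygen, and complex V uses the proton gradient so built to make ATP. Most subunits are encoded in the nucleus and imported, while a few core subunits of complexes I, III, IV and V are encoded in mitochondrial DNA, so that assembly needs both genomes. In striatum, projection neurons spend much of this ATP on ion pumping, and loss of respiratory chain function there is known from toxins of complex II. Nuclear respiratory factor 1 (NRF1), the ETS factor GABPA (nuclear respiratory factor 2) and YY1 are known regulators of these genes.

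Promoters of 300 bases (250 before to 50 after the annotated start, RefSeq, GRCm38.p6) were at hand for 77 of the 94 members and for 27025 genes in all. They were searched on both strands for an NRF1 core (CGCATGCG), an ETS core (CCGGAAG) and a YY1 motif (AAGATGGC). The ETS core ends in the letters with which the YY1 motif begins, so a match of one can share letters with a match of the other. The NRF1 core stood in 11 of the 77 members (14.3%) against 2.07% of all genes, the ETS core in 19 (24.7%) against 9.93%, and the YY1 motif in 11 (14.3%) against 3.19%. By complex the NRF1 core stood in 2 of 33 complex I promoters, 0 of 3 for complex II, 2 of 5 for complex III, 1 of 14 for complex IV and 4 of 15 for complex V. The YY1 motif stood in 7 of 33 complex I promoters, 3 of 15 for complex V and 0 of the 22 for complexes II, III and IV. A match is a description of the letters, not of a bound site, and no data on binding were part of the study. The following 3 promoters are shown 5′ to 3′ because Atp5j was the only member with all 3 motifs, and Atp5g2 (NRF1 core) and Uqcrh (ETS core) recur in the comparisons below. Capitals mark the matches, read on either strand, and the coordinates refer to GRCm38.p6, another build than that of the counts.
Atp5j, chr16:84834927-84835226, minus strand: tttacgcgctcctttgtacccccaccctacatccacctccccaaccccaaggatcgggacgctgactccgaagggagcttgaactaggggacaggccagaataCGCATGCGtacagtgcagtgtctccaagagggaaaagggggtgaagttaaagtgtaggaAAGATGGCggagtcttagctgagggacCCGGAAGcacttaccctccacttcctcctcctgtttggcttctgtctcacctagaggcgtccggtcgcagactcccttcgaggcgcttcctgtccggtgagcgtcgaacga
Atp5g2, chr15:102670998-102671297, minus strand: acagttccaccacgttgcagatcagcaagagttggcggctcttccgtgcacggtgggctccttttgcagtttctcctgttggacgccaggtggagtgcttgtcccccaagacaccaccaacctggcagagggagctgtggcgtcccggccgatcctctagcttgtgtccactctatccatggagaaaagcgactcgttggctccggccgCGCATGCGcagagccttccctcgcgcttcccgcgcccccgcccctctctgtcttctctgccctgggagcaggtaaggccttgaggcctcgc
Uqcrh, chr4:116075021-116075320, minus strand: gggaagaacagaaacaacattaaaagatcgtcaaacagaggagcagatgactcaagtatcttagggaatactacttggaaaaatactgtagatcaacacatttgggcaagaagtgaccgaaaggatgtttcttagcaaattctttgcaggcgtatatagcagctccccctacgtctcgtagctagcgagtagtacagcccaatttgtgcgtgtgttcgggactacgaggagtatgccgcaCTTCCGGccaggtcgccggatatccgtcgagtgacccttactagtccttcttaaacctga

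Libraries held 57003408 to 85536346 counts, and levels are given as CPM, counts scaled to a common library size (TMM), where 1 CPM stood for at least 57 counts. The members together took 1.02% to 1.25% of the counts in 18 libraries and 1.62% in saline knockout mouse 3. The striatal projection neuron markers (Ppp1r1b, Drd1, Adora2a and 7 others) were present in all 19 libraries, with a summed level of 1336 to 5210 CPM. Each mouse is a separate animal by its label. In bulk tissue a smaller share of a cell type and less RNA per cell cannot be told apart.

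Levels are compared between genes only as the authors' FPKM (fragments scaled to gene length and library size). The abundant members belonged to complexes IV and V. Atp5b, the catalytic beta subunit of the F1 head of ATP synthase, had the highest mean at 669 FPKM (range 562 to 821 over 19 mice), followed by Cox4i1, a nuclear subunit that tunes complex IV to the energy state, at 646 FPKM (557 to 998). These 2 ranges over mice overlapped, and the order of the 2 genes within single mice was not compared. Next came Cox8a, a small membrane subunit of complex IV, at 356 FPKM (312 to 518), Atp5a1, the partner of Atp5b in the F1 head, at 347 FPKM (296 to 417), and Atp5g3, which encodes the c ring of the proton rotor, at 303 FPKM (248 to 461). The ranges of these 3 also overlapped.

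The median FPKM over members was 71.8 for complex I, 88.7 for complex II, 108 for complex III, 78.2 for complex IV, 106 for complex V and 13.9 for the assembly factors. Complex I was even at its top, led by the accessory subunit Ndufb9 at 184 FPKM. Of its core subunits, Ndufs1, the large iron-sulfur subunit, stood at 71.9 FPKM and Ndufv1, which binds the NADH, at 103 FPKM. In complex II the flavoprotein Sdha stood at 172 FPKM, the iron-sulfur subunit Sdhb at 107 FPKM, and the membrane anchors Sdhc and Sdhd at 36.6 and 70.6 FPKM. In complex III the Rieske iron-sulfur protein Uqcrfs1 stood at 94.2 FPKM, the processing-peptidase-like subunits Uqcrc1 and Uqcrc2 at 99.8 and 133 FPKM, and the hinge protein Uqcrh was highest at 182 FPKM. Low FPKM of Ndufb7 (11.1), Ndufb2 (13.7), Atp5l (14.7) and Atp5g1 rests partly on the gene length behind the deposited values, recovered here as 4428, 4364, 6299 and 4707 bases, against 1062 bases for the median member.

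**Figure D1:**
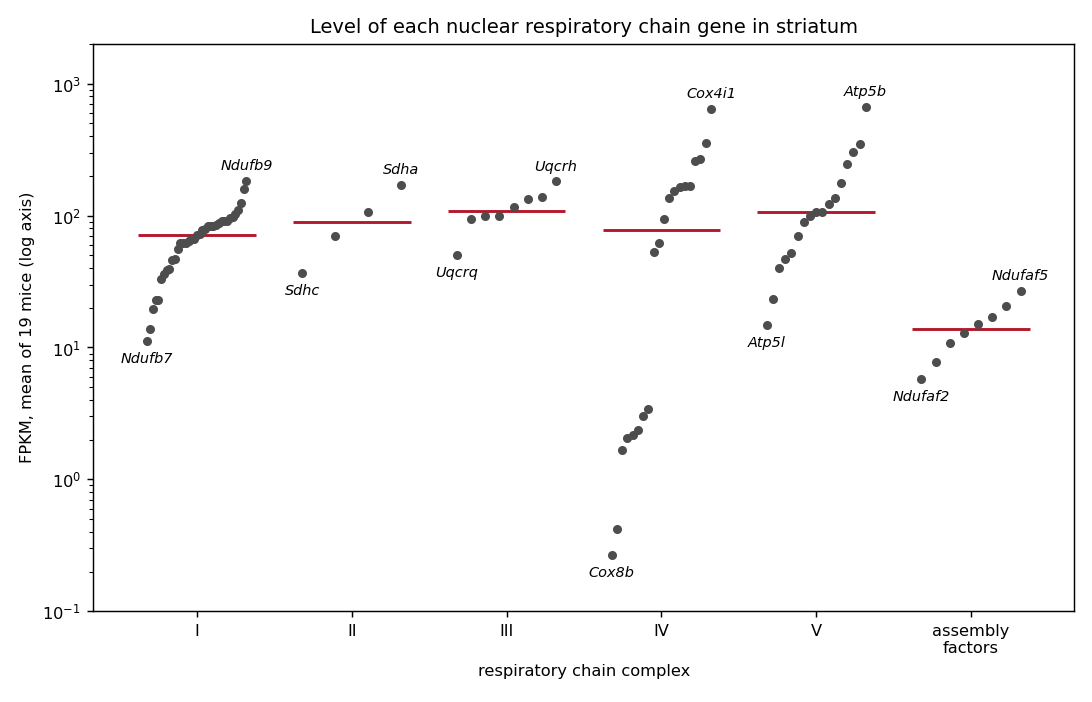
Mean FPKM over 19 mice of each member (points, log axis) by complex, with the median of each complex as a red line and the highest and lowest member named. Atp5b (669 FPKM) and Cox4i1 (646 FPKM) are highest, 8 complex IV members lie below 4 FPKM, and the assembly factors lie between 5.78 and 26.9 FPKM.

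Complex IV was the complex with paired isoforms, a common form and a form restricted to certain tissues. The common form made up nearly all of the transcript in every mouse. Cox4i2, the hypoxia-responsive form, was 0.333% ± 0.0683 (SD, n = 19) of the summed Cox4i1 and Cox4i2 FPKM, with single mice from 0.189% to 0.494%. Of the heart and muscle forms, Cox6a2 stood at 1.31% ± 0.246 of its pair and Cox7a1 at 0.683% ± 0.15 of Cox7a1, Cox7a2 and Cox7a2l together. The testis forms Cox6b2 and Cox7b2 stood at 1.14% ± 0.171 and 0.446% ± 0.149 of their pairs, and Ndufa4l2 at 1.52% ± 0.214 of Ndufa4 and Ndufa4l2. Cox8b, the muscle form of subunit VIII, was the scarcest of these forms at 0.0765% ± 0.0693 of the summed Cox8a and Cox8b FPKM. It had 1 to 32 counts a library and was the only member that failed the filter on low counts. Its highest count, 32, was in amphetamine knockout mouse 2. Cox5b-ps, annotated as protein coding but named as a copy of Cox5b, may share reads with it.

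The 3 c ring genes encode the same mature protein with different import sequences. Atp5g3 gave 76.3% ± 2.92 (SD, n = 19) of their summed FPKM, Atp5g2 17.8% ± 2.74 and Atp5g1 5.95% ± 0.333. The share of Atp5g2 was 17.4% ± 1.15 (n = 5) in saline control, 15.0% ± 3.78 (n = 5) in amphetamine control, 19.2% ± 1.3 (n = 5) in saline knockout and 19.8% ± 0.769 (n = 4) in amphetamine knockout mice. The amphetamine control group was the widest, and its lowest mouse reached 9.53%. On the CPM scale, without division by length, Atp5g1 gave 26.1% of the counts, so the order of Atp5g1 and Atp5g2 depends on the length used.

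Saline knockout mouse 3 stood apart in these genes and is described before the comparisons. All 93 tested members lay above the highest of the other 4 saline knockout mice, as did 7395 of all 21513 genes tested. The difference from the mean of those 4 mice had a median of 0.63 on the log2 CPM scale, from 0.14 for Sdha and 0.16 for Ndufs1 to 0.92 for Ndufb4 and 1.00 for Cox4i2. By complex the median was 0.69 for complex I, 0.55 for complex II, 0.61 for complex III, 0.64 for complex IV, 0.66 for complex V and 0.40 for the assembly factors. The mean log2 CPM of a complex in that mouse lay 0.47 (complex II) to 0.67 (complexes I and IV) above the mean of the other 18 mice, whose own range from lowest to highest was 0.20 for complex I and 0.28 for complexes II and IV.

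**Figure D2:**
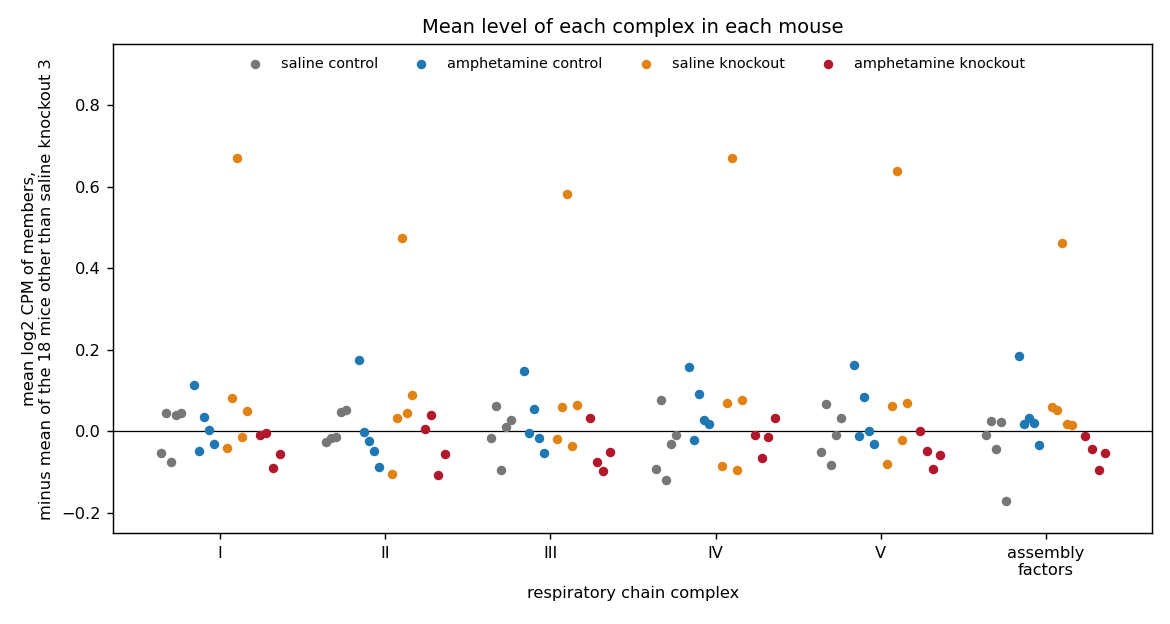
Mean log2 CPM over the members of each complex in each mouse, given as the difference from the mean of the 18 mice other than saline knockout mouse 3, with colours for the 4 groups. Saline knockout mouse 3 lies at 0.46 to 0.67, and amphetamine control mouse 1 is the highest of the others in every complex, at 0.11 to 0.18.

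The same library differed from the others by gene length. Among genes above 3 log2 CPM, those shorter than 1000 bases lay 0.66 above the other 4 saline knockout mice, those of 2000 to 3000 bases 0.19 above, and those over 5000 bases 0.43 below (-0.43). The difference between genes under 1000 and over 5000 bases was 1.06 in that library and -0.18 to 0.03 in the other 18. Members in the same length classes lay at 0.71 under 1000 bases (38 members), 0.60 at 1000 to 1500 bases, 0.57 at 1500 to 2000 bases, 0.41 at 2000 to 3000 bases and 0.55 at 3000 to 5000 bases. Relative to all genes of their class, 67 of 92 members were higher, with a median excess of 0.10. The excess was 0.13 for complexes I and V, 0.09 for complex II, 0.03 for complex IV and 0.00 for complex III. It depends on the recovered lengths, which set the class of each member. Members under 1000 bases had a median of 0.71 against 0.66 for all genes. The 8 members of 3000 to 5000 bases had 0.55 against -0.06. The excess was largest for Atp5l and Ndufb7, whose long recovered lengths are given above. The part of these lengths in the excess and its order by complex was not tested. Cytosolic ribosomal protein genes (0.74), mitochondrial ribosomal protein genes (0.48) and mitochondrially encoded genes (0.42) were also high in saline knockout mouse 3. The summed blood markers reached 421 CPM in that mouse against 66.0 to 161 CPM in the other 4 and up to 259 CPM in saline control mice. Its sums also lay above the other 4 for striatal projection neuron (4601 against 2166 to 3713 CPM), oligodendrocyte (6509 against 4765 to 6124) and skeletal muscle markers. They lay below for astrocyte (1122 against 1248 to 1342 CPM) and fast-spiking interneuron markers. The part of blood, of these cell types or of RNA quality in the result was not tested. Fold changes and list medians that use saline knockout mice are therefore given with and without this animal.

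**Figure D3:**
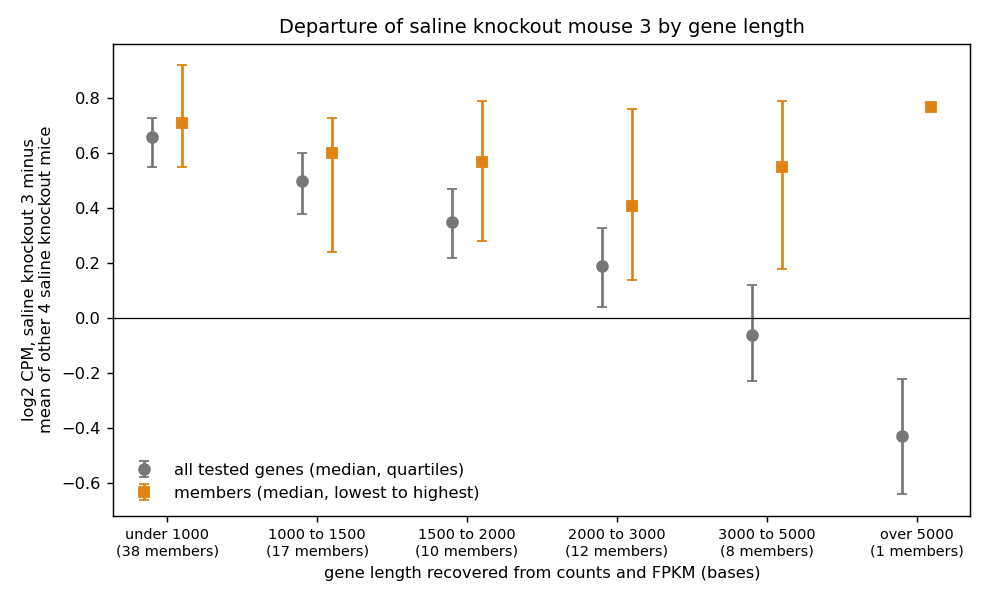
Log2 CPM of saline knockout mouse 3 minus the mean of the other 4 saline knockout mice, by gene length class, for genes above 3 log2 CPM. Grey circles and bars are the median and quartiles of all genes, orange squares and bars the median and the lowest to highest member. All genes go from 0.66 in the shortest class to -0.43 in the longest, and the members stay above 0 throughout.

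Apart from that animal the members varied little. The SD of log2 CPM within groups, without saline knockout mouse 3, had a median of 0.104 over the 86 members above 3 log2 CPM and 0.126 over the 11103 genes above that level. Ndufa12, an accessory subunit of complex I, was the most variable of the 86, with an SD of 0.221. It was named after its values were seen. Its level was 49.3 and 55.0 CPM in amphetamine control mice 1 and 2 and 73.5 to 77.6 CPM in mice 3 to 5, so mice 1 and 2 were low while the mean of complex I was highest in mouse 1.

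The first comparison asks whether 1 dose of amphetamine, a releaser of dopamine, changes these genes in control mice. None of the 93 members was called by edgeR (adjusted p under 0.05, a threshold that 0.00465% of all genes passed), and none reached an unadjusted p under 0.05 in either direction, against 4.89% of all genes higher and 6.95% lower. No member separated the groups without overlap, where 2.22% of all genes were higher and 1.68% lower without overlap. The log2 fold change was above 0 for 69 of 93 members, against 48.4% of all genes, with a median of 0.03. By complex the median was 0.01 for complex I, 0.00 for complex II, 0.03 for complex III, 0.05 for complexes IV and V and 0.10 for the assembly factors. The 95% interval of 29 members lay within 0.25 on either side of 0, and the median interval reached 0.24 to each side, or 0.15 when fitted on these 2 groups alone.

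The member with the smallest p in complex IV was Cox4i2. It stood at 1.54, 1.55, 1.32, 1.06 and 1.33 CPM in saline control mice 1 to 5 and at 1.76, 1.28, 2.14, 1.67 and 2.20 CPM in amphetamine control mice 1 to 5. Mice 3 and 5 were highest and the groups overlapped, with a log2 fold change of 0.42 ± 0.229 (SE), adjusted p = 0.494 by edgeR. Atp5l, the g subunit of the ATP synthase membrane part, stood at 86.2, 94.7, 82.2, 88.5 and 84.3 CPM after saline and at 113, 90.6, 103, 96.7 and 95.8 CPM after amphetamine. Only amphetamine mouse 2 fell inside the saline range, and the log2 fold change was 0.20 ± 0.127 with an adjusted p of 0.581 by edgeR. In the authors' deposited table of this comparison Atp5l was the member with the smallest adjusted p, 0.102, and 0 members passed 0.05, against 4.21% of all genes with a value. In the other complexes the smallest p belonged to Ndufs1 (log2 fold change 0.10), Sdha (-0.06) and Uqcrb, a subunit that binds ubiquinone (0.09), with adjusted p from 0.572 to 0.828 by edgeR.

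Sums of cell type markers also moved between these 2 groups. The summed striatal projection neuron markers were 4053 to 5210 CPM after amphetamine and 2695 to 3880 CPM after saline, cortical projection neuron markers 858 to 1454 and 341 to 970 CPM, and ependymal markers 11.1 to 25.2 and 27.1 to 39.2 CPM. Astrocyte markers summed to 1079 to 1152 CPM after amphetamine and 1196 to 1372 CPM after saline, and microglial markers to 218 to 254 and 150 to 230 CPM. The cortical and microglial sums overlapped between the groups, and the striatal, ependymal and astrocyte sums did not. None of these markers was at 0 in every library. With cortical and ependymal marker scores as covariates the median over all members was 0.14, with 85 of 93 above 0 and 1 member at an unadjusted p under 0.05. The part of the striatal, astrocyte and microglial markers in these values was not tested.

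**Figure D4:**
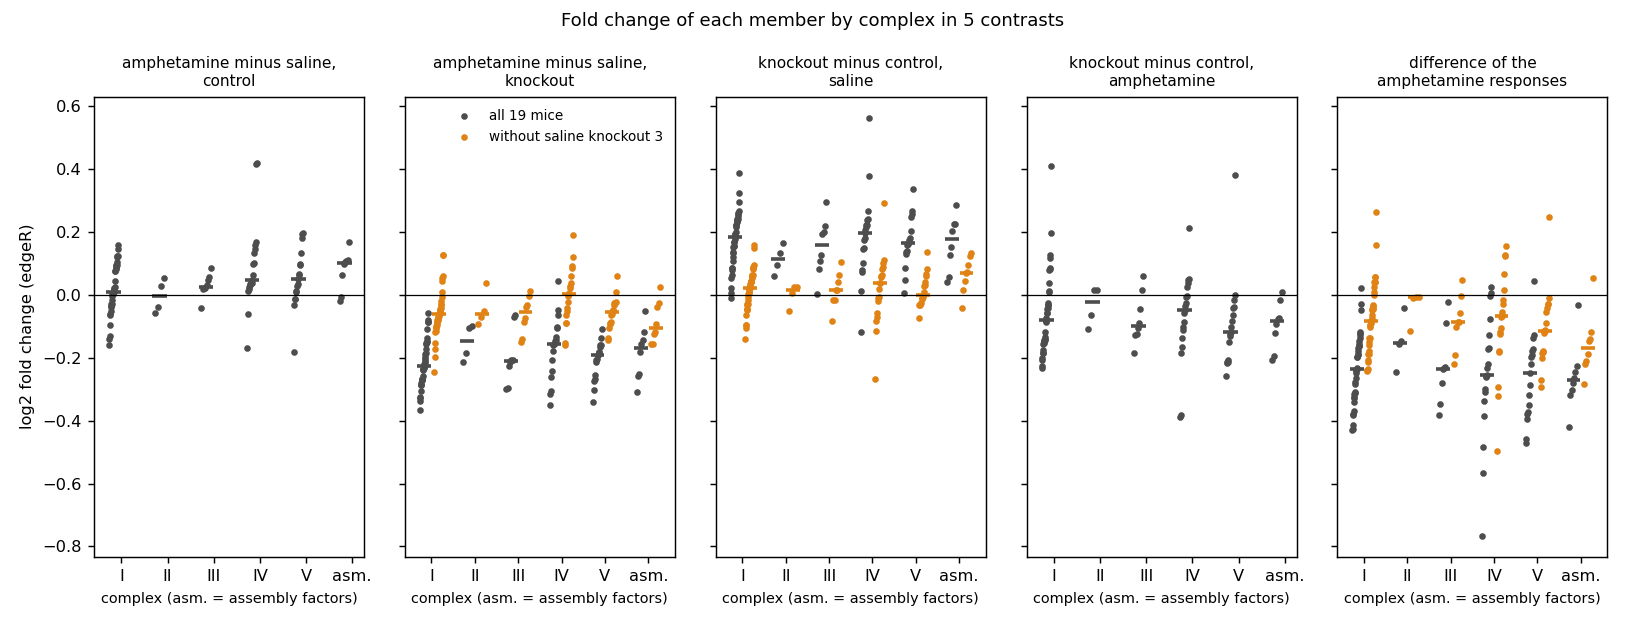
Log2 fold change (edgeR) of each tested member by complex in 5 contrasts, with all 19 mice in grey and without saline knockout mouse 3 in orange, and the median of each complex as a line. In the 3 contrasts that use the saline knockout group, the medians over all members are -0.20, 0.17 and -0.24 with all mice and -0.06, 0.02 and -0.09 without that mouse.

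In knockout mice, 92 of 93 members lay lower after amphetamine than after saline, with a median of -0.20, against a median of -0.006 and 48.9% above 0 over all genes. No member was called by edgeR, a threshold that 0.00465% of all genes passed. At an unadjusted p under 0.05, 23 members (24.7%) were lower and 0 higher, where 6% of all genes were lower and 6.09% higher. The median was -0.23 for complex I, -0.15 for complex II, -0.21 for complex III, -0.16 for complex IV, -0.19 for complex V and -0.17 for the assembly factors. Complex I held 13 of the 23, complexes III, IV and V 2 each, complex II 0 and the assembly factors 4. Without saline knockout mouse 3 the median over all members was -0.06, 72 of 93 were below 0, and 5 were lower and 0 higher at an unadjusted p under 0.05, where 4.37% and 5.08% of all genes were. Without that mouse no member was called, against 0.014% of all genes. Complex IV then had a median of 0.00 with 10 of 19 members above 0, complexes I, II, III and V had -0.06, and the assembly factors -0.11.

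Ndufb2 (ENSMUSG00000002416.14, chromosome 6, 39569508 to 39580316, GRCm39), an accessory subunit in the membrane arm of complex I, had the smallest p of all members. It stood at 62.3, 64.8, 90.5, 58.5 and 65.7 CPM in saline knockout mice 1 to 5 and at 54.2, 51.1, 52.3 and 54.5 CPM in amphetamine knockout mice 1 to 4. The groups did not overlap, also without mouse 3. The log2 fold change was -0.37 ± 0.104 (SE), to which edgeR gave an adjusted p of 0.278, and -0.24 with an adjusted p of 0.341 without mouse 3. In the authors' deposited table, which is labelled as made without 1 further knockout library not analysed here, Ndufb2 also had the smallest adjusted p of the members, 0.222. No member passed 0.05 there, against 0.665% of all genes with a value.

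Cox5a, a matrix-side subunit of complex IV, stood at 104, 115, 179, 112 and 132 CPM after saline and at 105, 105, 97.6 and 108 CPM after amphetamine. Saline mouse 1 lay within the amphetamine range, and the log2 fold change of -0.31 ± 0.111 (adjusted p = 0.305 by edgeR) was -0.16 without mouse 3 (adjusted p = 0.474). Uqcrh, which docks cytochrome c at complex III, stood at 160, 153, 227, 131 and 143 CPM after saline and at 146, 131, 119 and 133 CPM after amphetamine. The groups overlapped, and the log2 fold change was -0.30 ± 0.119 (adjusted p = 0.344 by edgeR), or -0.15 without mouse 3. Atp5j2, the f subunit of the ATP synthase membrane part, gave -0.30 ± 0.123, or -0.14 without mouse 3, and Sdhc of complex II -0.22 ± 0.111, or -0.09.

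Ndufaf5, an assembly factor that modifies a core subunit of complex I, stood at 32.7, 34.1, 45.5, 32.9 and 34.4 CPM after saline and at 31.6, 30.4, 28.5 and 29.9 CPM after amphetamine. The groups did not overlap with or without mouse 3, and the log2 fold change was -0.26 ± 0.0868 (adjusted p = 0.287 by edgeR), or -0.16 without it (adjusted p = 0.44). In all, 8 members did not overlap between these groups, each lower after amphetamine, where 2.84% of all genes were lower and 2.22% higher without overlap. The other 6 were Ndufab1, the mitochondrial acyl carrier protein, Ndufb3, Ndufb5 and Ndufc1 of the membrane arm of complex I, Atp5e of the F1 head and the assembly factor Ndufaf8. Of the 10 striatal projection neuron markers 9 were also below 0 in this comparison (median -0.35, or -0.21 without saline knockout mouse 3), with summed levels of 1336 to 3928 CPM after amphetamine and 2166 to 4601 CPM after saline. The 5 choroid plexus markers summed to 26.1 to 671 CPM after amphetamine and 41.9 to 55.0 CPM after saline, and the part of both lists in the values of the members was not tested.

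The second question of the design is whether the guide RNAs, without amphetamine, were accompanied by another level of these genes. This comparison shares its 5 saline knockout mice with the preceding one. Between saline knockout and saline control mice 91 of 93 members had a log2 fold change above 0, with a median of 0.17, against 51% of all genes above 0. No member was called by edgeR, as was true of 0% of all genes, and 16 members (17.2%) were higher and 0 lower at an unadjusted p under 0.05, where 3.79% and 4.15% of all genes were. No member separated the groups without overlap, where 0.511% of all genes were higher and 0.4% lower. The median was 0.18 for complex I, 0.12 for complex II, 0.16 for complexes III and V, 0.20 for complex IV and 0.18 for the assembly factors. Without saline knockout mouse 3 the median was 0.02 over all members, 58 of 93 were above 0, and 1 member, Ndufaf5 (log2 fold change 0.12), was higher and 0 lower at an unadjusted p under 0.05, where 1.66% and 2.91% of all genes were.

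Uqcrq, the small subunit of complex III next to cytochrome b, stood at 69.8, 76.3, 65.8, 75.7 and 66.5 CPM in saline control mice 1 to 5 and at 72.0, 80.0, 129, 75.6 and 78.0 CPM in saline knockout mice 1 to 5. Mouse 3 was highest, mice 2 and 5 also lay above the control range, and mice 1 and 4 lay within it. The log2 fold change was 0.30 ± 0.116 (SE, adjusted p = 0.614 by edgeR) and 0.10 without mouse 3 (adjusted p = 0.986). Cox7b of complex IV stood at 82.2, 91.6, 75.01, 94.4 and 91.8 CPM in control and at 94.5, 102, 149, 89.1 and 88.9 CPM in knockout mice. Its log2 fold change of 0.27 ± 0.112 was 0.10 without mouse 3, and the groups overlapped. Ndufs5, a complex I subunit of the intermembrane space, gave 0.25 ± 0.105, or 0.09 without mouse 3. Sdhd gave 0.16 ± 0.0932, or 0.03. Atp5g2, a c ring gene, stood at 44.1, 52.0, 44.5, 51.0 and 57.1 CPM in control and at 50.4, 55.5, 94.7, 58.5 and 54.8 CPM in knockout mice. The groups overlapped, and the log2 fold change was 0.34 ± 0.153 (adjusted p = 0.614 by edgeR), or 0.14 without mouse 3 (adjusted p = 0.998). In the authors' deposited table of this comparison 0 members passed an adjusted p of 0.05, against 0.00439% of all genes, and the smallest was 0.9, shared by many members.

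The comparison of knockout and control mice under amphetamine does not use saline knockout mouse 3 in either group. No member was called by edgeR, as was true of 0% of all genes. The log2 fold change was below 0 for 72 of 93 members, with a median of -0.08, where 51% of all genes were above 0. The median was -0.08 for complex I, -0.02 for complex II, -0.10 for complex III, -0.05 for complex IV, -0.12 for complex V and -0.09 for the assembly factors. At an unadjusted p under 0.05, 2 members were higher (7.44% of all genes were) and 2 lower (5.34% of all genes were). The shared estimate of spread includes saline knockout mouse 3. Fitted on these 2 groups alone, 2 members were higher and 14 lower, where 9.57% and 8.25% of all genes were, and the typical 95% interval reached 0.15 instead of 0.25 to each side. That fit called no member, and its smallest adjusted p was 0.174. The same fit for the other contrasts gave 4 members higher and 1 lower after amphetamine in control mice, where 6.84% and 8.1% of all genes were. It gave 0 higher and 4 lower after amphetamine in knockout mice (4.92% and 4.51% of all genes), and 1 higher and 0 lower in saline knockout against control mice (1.55% and 2.47%). Amphetamine control mouse 3 and amphetamine knockout mice 2 and 3 are among the 5 libraries listed below as standing apart. Without these 5 libraries, 67 of 94 members were below 0 under amphetamine (median -0.07). The smallest adjusted p was then 0.97 by edgeR, for Ndufs1.

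Both members higher in knockout mice go against the direction of their complexes. Atp5g2 (ENSMUSG00000062683.12, chromosome 15, 102571299 to 102580787, GRCm39), whose promoter is printed above, stood at 30.9, 37.8, 47.7, 51.3 and 51.2 CPM in amphetamine control mice 1 to 5 and at 55.6, 59.2, 57.8 and 55.5 CPM in amphetamine knockout mice 1 to 4. The groups did not overlap, and control mice 1 and 2 were the lowest of all 19. The log2 fold change was 0.38 ± 0.162 (SE, adjusted p = 0.333 by edgeR), or 0.27 without amphetamine control mouse 1. Ndufb4 of complex I, named because it passed the unadjusted threshold, stood at 21.5, 26.0, 31.8, 31.3 and 35.2 CPM in control and at 35.3, 43.5, 38.4 and 37.8 CPM in knockout mice. Its groups touched without overlap, and the log2 fold change was 0.41 ± 0.184 (adjusted p = 0.365 by edgeR), or 0.31 without control mouse 1. Genes of this kind have processed copies elsewhere in the genome, and how reads shared with such copies were counted is not given in the sources used here.

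Ndufs1 (ENSMUSG00000025968.17, chromosome 1, 63182755 to 63215992, GRCm39), the largest core subunit of complex I, stood at 228, 209, 200, 196 and 190 CPM in amphetamine control mice 1 to 5 and at 185, 186, 162 and 180 CPM in amphetamine knockout mice 1 to 4. The groups did not overlap, with control mouse 1 highest and knockout mouse 3 lowest. The log2 fold change was -0.20 ± 0.0701 (SE), edgeR gave it an adjusted p of 0.259, and it lay between -0.23 and -0.16 with each mouse left out in turn. By DESeq2 the adjusted p was 0.0958. The saline groups of Ndufs1, at 184 to 197 CPM in control and 173 to 206 CPM in knockout mice, overlapped throughout. The assembly factor Ndufaf4 stood at 45.5, 41.0, 41.4, 40.1 and 41.2 CPM in control and at 40.8, 35.0, 31.8 and 37.3 CPM in knockout mice, overlapping only through knockout mouse 1, with a log2 fold change of -0.21 ± 0.0749 (adjusted p = 0.263 by edgeR). In all 2 members were higher and 6 lower without overlap, where 3.08% and 3.71% of all genes were. The lower ones were Ndufs1, Ndufs3, a core subunit of complex I, Ndufc1, Atp5md, Ndufaf1 and Ndufaf8.

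**Figure D5:**
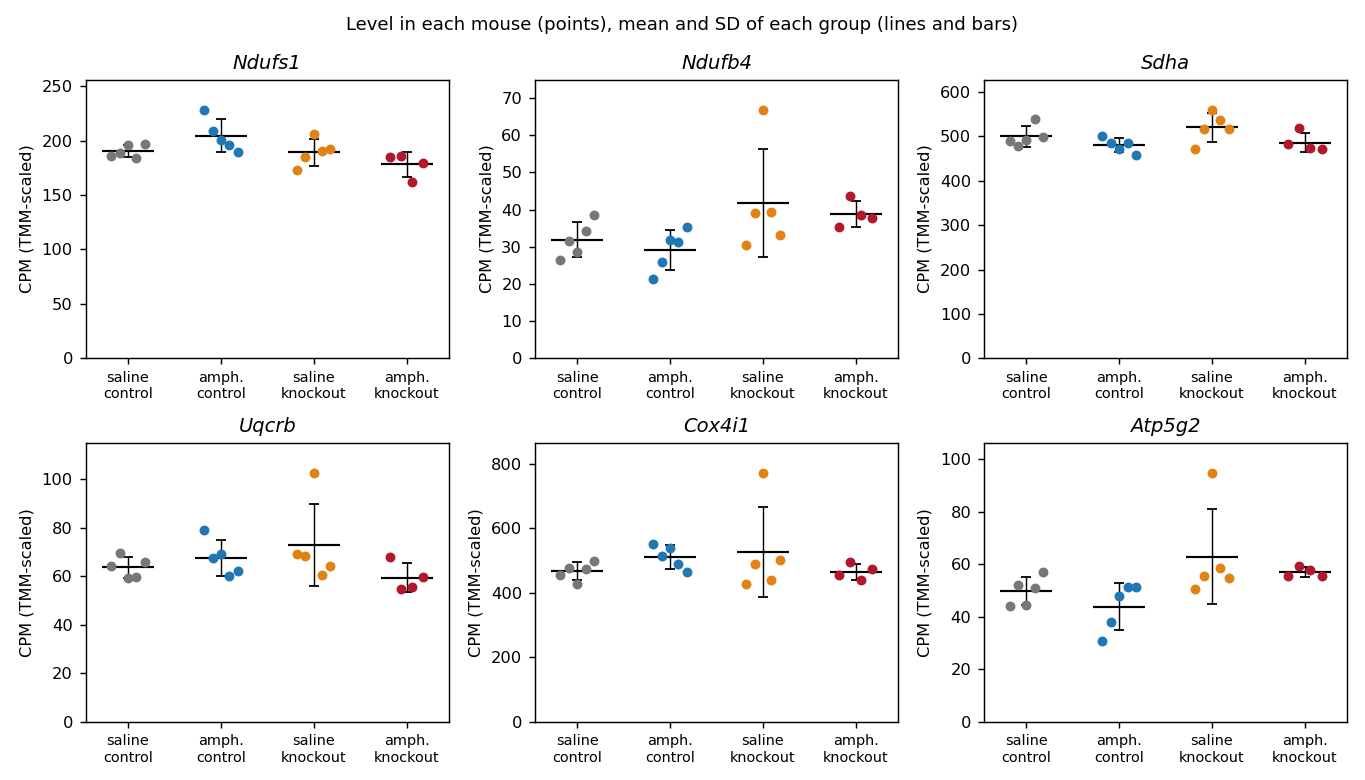
CPM of 6 members in each mouse (points) by group, with the group mean as a line and the SD as a bar, each axis starting at 0. Saline knockout mouse 3 stands out as the highest point for Ndufb4, Uqcrb, Cox4i1 and Atp5g2, while its Ndufs1 and Sdha lie 0.16 and 0.14 (log2) above the mean of the other saline knockout mice.

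In complexes II to IV the members with the smallest p under amphetamine were Sdhc (log2 fold change -0.11 ± 0.11), Uqcrb (-0.18 ± 0.123) and Cox4i2 (-0.39 ± 0.243), with adjusted p from 0.539 to 0.728 by edgeR. Markers moved with this comparison too. The summed striatal projection neuron markers were 1336 to 3928 CPM in amphetamine knockout and 4053 to 5210 CPM in amphetamine control mice, all 10 had a log2 fold change below 0, and their median was -0.81. Drd2, the D2 receptor gene itself, had the smallest p of the 10 in striatum (-1.02 ± 0.276, adjusted p = 0.223 by edgeR), followed by Drd1 (-0.79 ± 0.245, adjusted p = 0.227). Under saline Drd2 stood at -0.25 ± 0.255 in knockout against control mice (adjusted p = 0.779 by edgeR), or -0.29 ± 0.284 without saline knockout mouse 3. Ependymal markers summed to 22.9 to 38.03 and 11.1 to 25.2 CPM, and choroid plexus markers to 26.1 to 671 and 30.4 to 66.7 CPM. The part of the striatal and choroid plexus markers in the values of the members was not tested. With cortical and ependymal scores as covariates the median over members was -0.15.

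The difference between the amphetamine responses of knockout and control mice was below 0 for 89 of 93 members, with a median of -0.24, where 50.9% of all genes were above 0. It is built from the same 4 groups as the comparisons above. No member was called by edgeR, as was true of 0% of all genes, and 20 members (21.5%) were lower and 0 higher at an unadjusted p under 0.05, where 4.05% and 5.2% of all genes were. The medians ran from -0.15 for complex II to -0.27 for the assembly factors. Without saline knockout mouse 3 the median was -0.09, 76 of 93 were below 0 and 8 were lower at an unadjusted p under 0.05, among them 4 of complex I, 1 of complex V and 3 assembly factors, where 3.11% of all genes were lower. None was higher, where 5.14% of all genes were. Within each of complexes I to V, in that order, the smallest p belonged to Ndufb2 (-0.37 ± 0.142), Sdhc (-0.24 ± 0.152), Uqcrb (-0.38 ± 0.169), Cox4i2 (-0.77 ± 0.333) and Atp5mpl (-0.46 ± 0.188). Atp5mpl is a small ATP synthase subunit. Adjusted p of these members ran from 0.519 to 0.598 by edgeR, and Sdhc did not reach an unadjusted p under 0.05. All 10 striatal projection neuron markers were below 0 in this contrast as well (median -0.79, or -0.72 without saline knockout mouse 3), and their part was not tested. Without that mouse the 5 members gave -0.24, -0.11, -0.22, -0.50 and -0.29.

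Genes that work with the respiratory chain were followed as lists, and none of their members was called by edgeR in any of the 5 contrasts. Of 36 other assembly factors tested, 32 were below 0 after amphetamine in knockout mice (median -0.13) and 31 above 0 in saline knockout against saline control mice (median 0.13). Without saline knockout mouse 3 these became 24 below 0 (median -0.05) and 22 above 0 (median 0.03). The 13 mitochondrially encoded subunits gave 12 below 0 (median -0.19) and 13 above 0 (median 0.25) in the same contrasts, where mt-Co2, a catalytic subunit of complex IV, had the smallest p (-0.38 ± 0.132 and 0.37 ± 0.124). Without that mouse 11 were below 0 (median -0.11) and 13 above 0 (median 0.15), and mt-Co2 stood at -0.19 ± 0.0736 and 0.18 ± 0.0697. The 13 genes of the tricarboxylic acid cycle, which feeds electrons to the chain, had medians of -0.09 and 0.06, or -0.06 and 0.01 without it.

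The 11 nuclear regulators of mitochondrial biogenesis lay differently, with 6 above and 5 below 0 after amphetamine in knockout mice (median 0.00), or 3 above and 8 below without saline knockout mouse 3 (median -0.03). In saline knockout against saline control mice 9 of the 11 were below 0 with and without saline knockout mouse 3 (medians -0.04 and -0.06). Ppargc1b had the smallest p of the list in that contrast (-0.39 ± 0.143, adjusted p = 0.614 by edgeR), or -0.26 ± 0.106 without that mouse. Under amphetamine 10 of the 11 were below 0 in knockout against control mice (median -0.10). Esrra, an orphan nuclear receptor that acts with PGC-1 proteins, had the smallest p there (-0.33 ± 0.118, adjusted p = 0.261 by edgeR), followed by the coactivator Ppargc1b (-0.37 ± 0.152, adjusted p = 0.311). Cycs and Cyc1, cytochrome c and cytochrome c1, had log2 fold changes of -0.07 and -0.03 in that contrast.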

How the data were processed

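Gene expression was measured by RNA-seq of striatum from 19 mice in 4 groups taken from the labels. The authors deposited whole-number counts per gene. Tools listed in the submitters' processing notes are STAR 2.6.0c, HTSeq 0.6.1p2, Trim Galore 0.5.0, FastQC 0.11.5, R 3.6.1 and DESeq2 1.26.0s, with GRCm39 as the build. No source used here gives the strand setting or annotation release, and reads of overlapping genes or near-identical copies may be shared. Per the file headers, 3 further tables that the authors deposited hold FPKM per mouse, log2 fold changes with standard errors, p-values and adjusted p-values, the mean normalised signal of a gene and a test score (the Wald statistic). Coordinates and symbols come from these tables. The unit of length behind the FPKM is not stated, and gene lengths were recovered from counts and FPKM for 17737 genes (Spearman correlation 0.927 across genes with annotated exon length).

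Counts were fitted in R 4.3.3 with edgeR 4.0.16 (filterByExpr, TMM, robust quasi-likelihood, 4 group means over 19 libraries), and p-values were adjusted by Benjamini-Hochberg over all 21513 genes tested. Levels are TMM-scaled CPM, and log2 CPM used a prior count of 2. Standard errors divide each log2 fold change by the square root of F. Counts of 21513 genes were simulated for all 19 libraries, with 200 of the more abundant genes changed in the amphetamine control group. For amphetamine against saline in controls, the fit called 13 of 50 genes changed 1.25-fold, 43 of 50 changed 1.5-fold and 47 of 50 changed 2-fold. It made 8 false calls among unchanged genes. Recovery with fewer changed genes, or of scarce genes, was not simulated. DESeq2 1.42.0, limma 3.58.1 (voom), other filters, covariates, left-out mice and gene-length offsets were alternatives. The offsets, and the related and marker lists without saline knockout mouse 3, were chosen after seeing the data. Promoters came from RefSeq.

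The members and lists were chosen with earlier results of these data known. Genes named in the text are those with the smallest p per complex and contrast, the defining subunits, the isoform pairs, the highest and lowest members and the member that failed the filter, and 1 result of this rule is not reported here. Same-numbered mice were checked for pairing and were not treated as pairs.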

Additional observations from a re-analysis of the deposited data

Results flagged for a closer look

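Of 208 groups of 4 or 5 mice examined (the mean log2 CPM of each complex and the CPM of each named member), 37 held a mouse whose gap to the nearest other exceeded Dixon's critical value, where chance gives about 1 in 20. Saline knockout mouse 3 accounts for 28 of them, all high. The mean log2 CPM in that mouse was 6.82 for complex I (others 6.11 to 6.23), 7.35 for complex III (6.73 to 6.83), 5.31 for complex IV (4.54 to 4.71), 7.87 for complex V (7.16 to 7.31) and 4.86 for the assembly factors (4.41 to 4.46). For complex I genes its CPM was 90.5 for Ndufb2, 66.9 for Ndufb4, 82.6 for Ndufb7, 197 for Ndufb9 and 93.1 for Ndufs5. Complex II gave 189 CPM for Sdhb and 129 CPM for Sdhd, and complex III gave 103 CPM for Uqcrb, 181 CPM for Uqcrfs1 and 129 CPM for Uqcrq. In complex IV the values were 772 CPM for Cox4i1, 2.95 for Cox4i2, 269 for Cox6b1, 163 for Cox7a2, 231 for Cox7a2l, 149 for Cox7b and 300 for Ndufa4. In complex V they were 94.7 CPM for Atp5g2, 175 for Atp5j2, 146 for Atp5l and 99.1 for Atp5mpl, and the assembly factors gave 22.4 CPM for Ndufaf2 and 45.5 for Ndufaf5.

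The flags outside saline knockout mouse 3 came at about the rate that chance gives, and none of them is read as a trait of a mouse. Amphetamine control mouse 1 was high for Cox7a2l (173 CPM, others 141 to 148), Uqcrh (171 CPM, others 133 to 143) and Ndufaf4 (45.5 CPM, others 40.1 to 41.4). Saline control mouse 5 was high for Cox7a2l, which helps join complexes III and IV (166 CPM, others 137 to 145), and low for Ndufb2 (48.2 CPM, others 60.0 to 62.3). Saline control mouse 4 was low for Cox7b2 (0.0644 CPM, others 0.182 to 0.227) and saline control mouse 3 for Uqcrh (129 CPM, others 141 to 144). In amphetamine knockout mice, mouse 1 was high for Atp5j2 (111 CPM, others 94.7 to 97.3) and mouse 2 low for Cox4i2 (0.90 CPM, others 1.49 to 1.59).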

How the results depend on the processing

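No member was called by edgeR in any contrast under any setting run. Counts at an unadjusted p under 0.05 moved by more than 1.5 times in the following settings. After amphetamine in control mice (0 members) they were 1 with cortical and ependymal covariates, 4 without the 5 libraries that stood apart (saline control 5, amphetamine control 3, saline knockout 3, amphetamine knockout 2 and 3), 5 on the 2 groups alone and 2 with gene-length offsets. After amphetamine in knockout mice (23) they were 14 with voom, 5 with covariates, 2 without the 5 libraries, 4 on the 2 groups alone and 10 with length offsets. For knockout against control under saline (16) they were 6 with voom, 1 without the 5 libraries, 1 on the 2 groups alone and 3 with length offsets. Under amphetamine (4) they were 16 on the 2 groups alone and 20 with length offsets, 18 of them lower. For the difference of responses (20) they were 12 with voom, 1 without the 5 libraries and 12 with length offsets. With these offsets, 5.61% of all genes were higher and 8.21% lower after amphetamine in control mice, and 7.14% and 4.76% in knockout mice. The shares were 2.81% and 4.2% for knockout against control under saline, 8.82% and 5.99% under amphetamine, and 6.19% and 3.72% for the difference. Shares on the 2 groups alone are given above, and those with voom, with covariates and without the 5 libraries are not given. With each mouse left out in turn the counts of members ran from 0 to 1, 5 to 42, 1 to 35, 2 to 6 and 7 to 28, in the same order of contrasts. The lowest counts, 5 after amphetamine in knockout mice and 1 in saline knockout against control mice, were without saline knockout mouse 3, the highest, 42 and 35, without saline knockout mouse 1, and the 7 of the difference without amphetamine control mouse 1.

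Medians moved by more than the spread between mice (the pooled SD within groups of the mean log2 CPM of a complex) as follows. That spread includes saline knockout mouse 3 and is widened by it, so a median not listed is not shown to be stable. Without the 5 libraries, the amphetamine response in knockout mice was -0.07 for complex I, -0.05 for III and 0.02 for IV. The saline knockout median was 0.03 for the assembly factors, and the difference of responses was -0.07 for complex I, -0.04 for III, -0.03 for IV and -0.12 for the assembly factors. With length offsets, complex I was at -0.07 after amphetamine in knockout mice, complex III at 0.00 in saline knockout against control mice, and complexes II and III at -0.01 and -0.08 in the difference of responses. With each mouse left out, the response in knockout mice ran from -0.27 to -0.06 for complex I and -0.26 to -0.06 for III. Saline knockout against control ran from 0.02 to 0.23 for complex I and 0.00 to 0.21 for V. The difference ran from -0.20 to -0.01 for complex II, -0.29 to -0.09 for III and -0.30 to -0.07 for IV. The end nearest 0 was each time without saline knockout mouse 3. Other medians also fell without that mouse but stayed within the spread. In saline knockout against control mice these were complex II (0.12 to 0.02), III (0.16 to 0.02), IV (0.20 to 0.04) and the assembly factors (0.18 to 0.07).

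Among single genes, Sdha after amphetamine in control mice turned to 0.02 with covariates, and Ndufs1 in saline knockout against control mice turned to 0.02 without saline knockout mouse 1. As CPM in place of FPKM, the isoform shares were 0.382% for Cox7a1, 0.242% for Cox7b2, 1.23% for Ndufa4l2, 26.1% for Atp5g1, 12.5% for Atp5g2 and 61.4% for Atp5g3, since FPKM divides by length. The cause of the other shifts was not tested.

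Replicate numbers were checked as a pairing. The 27 same-numbered pairs had correlations of deviations from -0.349 to 0.154, 1 of them over 0.1. Of the 19 libraries, 2 correlated best with their own number. The numbers are those of the titles. In the amphetamine knockout group they skip the library not analysed here, so they differ from the order of the original sample names. A pairing by the original names was not tested. With a replicate block by the title numbers, 7 members instead of 16 were higher in saline knockout mice at an unadjusted p under 0.05, and the other counts stayed within 1.5 times. A level of 1 CPM stood for at least 57 counts. In knockout against control mice under amphetamine the median 95% interval of the members reached 0.25 to each side in the fit over all 19 mice and 0.15 over the 2 groups alone.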
